A study of Homo sapiens with 6 samples.

Results

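The rows described here are the 117 zinc finger (ZNF) rows of a read count table whose mean count over 6 libraries was 30 or more. They were taken by their symbol, ZNF and a number with or without a letter or an antisense ending, from 585 such rows among the 59087 rows of the table. They were chosen by the mean count itself, so a row's level is described and not tested. By annotation, 99 of the members are protein-coding genes, 15 are antisense genes, 1 is a processed transcript and 1 is a pseudogene, and ZNF687-AS1 could not be placed.

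The libraries came from HEK293T, a human embryonic kidney cell line, with 2 libraries of the THUMPD2 knockout line KO1, 2 of the THUMPD2 knockout line KO2 and 2 of wild type (WT). THUMPD2 is an RNA methyltransferase that modifies U6, a small RNA of the spliceosome, and the series title names pre-mRNA splicing and retina degeneration. No treatment or time is labelled, and the lines share the HEK293T background. Each knockout line is compared with 1 WT line, so an effect of the knockout and any other difference between the lines cannot be told apart.

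ZNF proteins bind DNA through arrays of zinc fingers, small folds held by a zinc ion. Many of them carry a KRAB domain, which recruits the corepressor TRIM28 and, through it, the histone methyltransferase SETDB1 to silence transposable elements and genes. Their genes arose largely by tandem duplication and stand in clusters, the best known of them on human chromosome 19, where neighbours often lie on opposite strands and overlap.

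The promoters of 4 genes on chromosome 19 are shown because they form 2 overlapping pairs whose rows are described below. ZNF135 and ZSCAN18 overlap at their ends on opposite strands, and the ZNF135 row was low in KO1 alone. ZNF549 and ZNF550, also on opposite strands, overlap over most of their spans and share 473 exonic bases. Both of their rows rose in both lines. Each sequence runs from 250 bases before to 50 bases after a RefSeq start in GRCh38.p14, on the gene's own strand, with every CG dinucleotide in capitals. The windows are chr19:58058989-58059288 (plus strand) for ZNF135, chr19:58118355-58118654 (minus strand) for ZSCAN18, chr19:57527106-57527405 (plus strand) for ZNF549 and chr19:57559814-57560113 (minus strand) for ZNF550.
ZNF135: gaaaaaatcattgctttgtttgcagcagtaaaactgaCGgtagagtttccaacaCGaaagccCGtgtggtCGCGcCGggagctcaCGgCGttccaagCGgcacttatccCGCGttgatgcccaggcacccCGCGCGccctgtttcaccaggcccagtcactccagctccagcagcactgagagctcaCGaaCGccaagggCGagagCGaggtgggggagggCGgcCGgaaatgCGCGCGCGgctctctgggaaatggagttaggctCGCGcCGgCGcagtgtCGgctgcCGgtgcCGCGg
ZSCAN18: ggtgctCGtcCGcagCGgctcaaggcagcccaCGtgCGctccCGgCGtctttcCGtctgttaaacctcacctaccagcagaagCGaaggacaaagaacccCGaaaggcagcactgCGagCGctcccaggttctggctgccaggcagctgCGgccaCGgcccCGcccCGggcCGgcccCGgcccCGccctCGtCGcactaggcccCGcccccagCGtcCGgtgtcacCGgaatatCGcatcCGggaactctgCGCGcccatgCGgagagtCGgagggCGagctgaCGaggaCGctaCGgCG
ZNF549: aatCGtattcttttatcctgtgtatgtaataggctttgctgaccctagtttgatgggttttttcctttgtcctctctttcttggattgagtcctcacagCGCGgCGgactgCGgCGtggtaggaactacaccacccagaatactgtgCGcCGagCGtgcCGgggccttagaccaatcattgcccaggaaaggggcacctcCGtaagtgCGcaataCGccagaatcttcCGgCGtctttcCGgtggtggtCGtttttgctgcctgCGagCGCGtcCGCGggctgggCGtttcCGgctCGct
ZNF550: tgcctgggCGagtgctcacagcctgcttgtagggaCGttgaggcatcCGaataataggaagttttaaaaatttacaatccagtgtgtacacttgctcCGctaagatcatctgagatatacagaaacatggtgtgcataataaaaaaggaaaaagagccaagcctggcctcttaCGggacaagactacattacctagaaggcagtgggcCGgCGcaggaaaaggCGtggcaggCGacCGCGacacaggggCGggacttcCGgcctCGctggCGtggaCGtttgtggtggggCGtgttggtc
The ZNF135 window holds 32 CG dinucleotides, a number reached by 18.9% of the 35116 windows of this length in the RefSeq table. The ZSCAN18 window holds 36, reached by 12.7%, the ZNF549 window 25, reached by 32.0%, and the ZNF550 window 17, reached by 46.0%. Another RefSeq start, not printed, gives ZNF135 a window with 34 (chr19:58059032-58059331, reached by 15.6%). Likewise, ZSCAN18 has another window with 31 (chr19:58098182-58098481, reached by 20.7%). Over the 100 members with a window the median was 25, against 14 over all windows. DNA methylation was not measured in these libraries.

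Total counts ran from 7414339 to 7539788 in KO1, 7926552 to 8391143 in KO2 and 7619064 to 8085598 in WT. The members took 0.643% to 0.659% of the counts in KO1, 0.654% to 0.656% in KO2 and 0.658% to 0.662% in WT. THUMPD2 itself had 3 and 0 reads in KO1, 0 and 1 in KO2, and 1 and 2 in WT, which is too few to check the labels. All 9 HEK293T marker rows held reads, though PAX2 averaged 1.17. They summed to 3052 to 3278 reads in KO1, 5885 to 6229 in KO2 and 3940 to 4224 in WT. The VIM row averaged 445 reads and the VIM-AS1 row on its other strand 32590. The 11 marker rows of leukocytes, hepatocytes, fibroblasts and endothelium summed to 109 to 125 reads in KO1, 124 to 152 in KO2 and 122 to 131 in WT, with ALB at 0. In bulk RNA, fewer cells with a transcript and less of it per cell cannot be told apart.

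The level of a ZNF row differed with what lay on the other strand. Of the 156 ZNF rows with at least 100 exonic bases over the exons of 1 gene on the other strand, 74 were members, or 47.4%, and their median mean count was 25.8. Of the 409 rows with no such exonic base, 35 were members, or 8.56%, with a median of 1.5. Of the 19 rows with 1 to 99 such bases, 7 were members, with a median of 9.33. The library kit keeps the strand of a transcript, but the strand setting of the counting is not given in the sources used here. A symbol below therefore stands for its row. Whether a row's reads came from the named gene or from its partner on the other strand was not tested. Among the markers, VIM averaged 445 reads against 32590 in VIM-AS1, NEFM 80.8 against 2446 in AF106564.1 and CDH2 10.2 against 654.5 in AC110015.1. The other way, NEFL averaged 30.8 against 20.7 in AC107373.2, and APOA1 65.3 against 29.8 in APOA1-AS. KRT8 averaged 3652 reads and KRT18, on its other strand, 137.

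**Figure D1:**
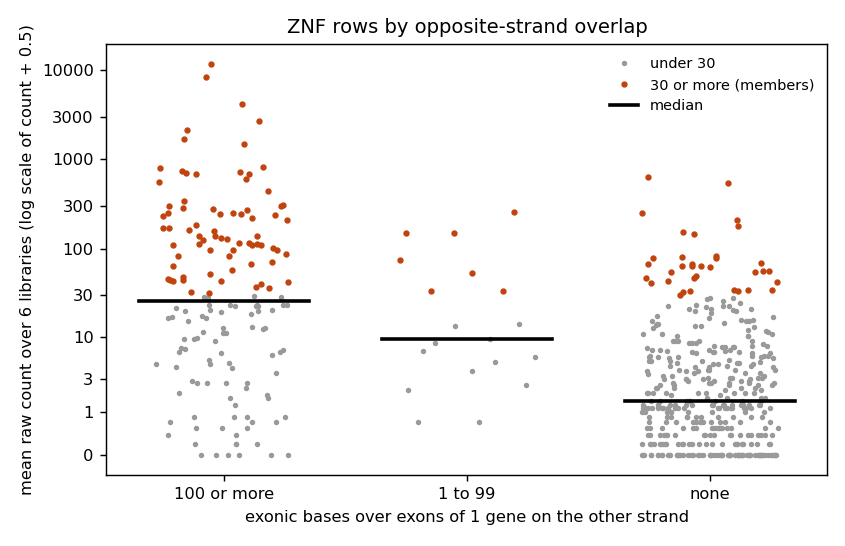
Mean raw count over the 6 libraries of each placed ZNF row (vertical axis, log scale of count plus 0.5) by the exonic bases it has over exons of 1 gene on the other strand (horizontal axis). Each point is a row, red points are the members with a mean of 30 or more, and black lines are medians, at 25.8, 9.33 and 1.5 from left to right.

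Another ZNF gene lay opposite 34 of the 74 members with an overlap of at least 100 bases, and the opposite gene was protein-coding for 48. There were 16 pairs in which both rows were members and overlapped in this way: ZNF140 and ZNF891, ZNF146 and ZNF565, ZNF205 and ZNF213-AS1, ZNF214 and ZNF215, ZNF227 and ZNF235, ZNF233 and ZNF235, ZNF32 and ZNF32-AS1, ZNF32 and ZNF32-AS2, ZNF337 and ZNF337-AS1, ZNF382 and ZNF529, ZNF394 and ZNF789, ZNF503 and ZNF503-AS2, ZNF529 and ZNF529-AS1, ZNF549 and ZNF550, ZNF561-AS1 and ZNF562, and ZNF710 and ZNF710-AS1. The other protein-coding partners were ZNF135 over ZSCAN18, ZNF142 over BCS1L, ZNF219 over TMEM253, ZNF263 over TIGD7, ZNF276 over FANCA, ZNF3 over ZSCAN21, ZNF341-AS1 over ZNF341, ZNF397 over ZSCAN30, ZNF428 over SRRM5, ZNF446 over SLC27A5, ZNF451-AS1 over ZNF451, ZNF48 over SEPT1, ZNF511 over TUBGCP2, ZNF513 over SNX17, ZNF518A over BLNK, ZNF575 over ETHE1, ZNF586 over ZNF552, ZNF646 over PRSS53, ZNF649-AS1 over ZNF649, ZNF655 over FAM200A, ZNF687 over PI4KB, ZNF7 over COMMD5, ZNF771 over DCTPP1, ZNF814 over ZNF587 and ZNF839 over CINP. Noncoding or pseudogene partners were ZNF143 over AC132192.2, ZNF165 over AL121944.1, ZNF224 over AC021092.1, ZNF232 over AC012146.1, ZNF252P-AS1 over AF235103.2, ZNF432 over AC011468.5, ZNF497 over A1BG-AS1, ZNF506 over AC011477.1, ZNF544 over AC020915.3, ZNF566 over AC092295.2, ZNF57 over AC119403.1, ZNF571-AS1 over AC022148.1, ZNF573 over AC016582.2, ZNF598 over AC005606.1, ZNF668 over AC135050.1, ZNF688 over AC002310.2, ZNF747 over AC002310.1, ZNF785 over AC002310.2, ZNF821 over AC010653.2 and ZNF862 over AC004877.1. The exonic overlap was shorter than 100 bases in ZNF324 over AC012313.7, ZNF385C over NKIRAS2, ZNF436-AS1 over ZNF436, ZNF596 over RPL23AP53, ZNF654 over CGGBP1, ZNF664 over CCDC92 and ZNF790-AS1 over ZNF790. All exons lay within introns of the partner for ZNF154 over ZNF551, ZNF484 over ANKRD19P, ZNF597 over AC025283.3 and ZNF671 over AC003006.1, and the spans overlapped with no shared exonic base for ZNF213 over ZNF213-AS1, ZNF350-AS1 over ZNF350, ZNF367 over AL133477.1, ZNF45 over AC006213.3, ZNF574 over GRIK5, ZNF584 over AC012313.1, ZNF674 over RNU6-50P, ZNF689 over AC093249.2, ZNF696 over AC138696.2, ZNF787 over RF00019 and ZNF865 over AC008735.4. No gene of the other strand lay over ZNF132, ZNF2, ZNF24, ZNF250, ZNF282, ZNF335, ZNF391, ZNF398, ZNF41, ZNF496, ZNF517, ZNF557, ZNF602P, ZNF614, ZNF629, ZNF703, ZNF706, ZNF768, ZNF777 and ZNF837. The 2 genes of an overlap met tail to tail for 36 members and head to head for 14, and for 24 members one lay within the other.

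The members leaned upward in both knockout lines. In KO1, 28 of the 117 were higher than in WT and 10 were lower, by edgeR's quasi-likelihood test at a Benjamini-Hochberg adjusted p under 0.05 over all 14184 tested rows. Over all tested rows the shares were 10.4% higher and 13.3% lower, and over the 7945 tested rows of mean count 30 or more that are not ZNF rows they were 14.9% and 19.9%. In KO2, 30 members were higher than in WT and 15 lower, beside 13.6% and 15.4% of all tested rows and 18.0% and 24.1% of those with 30 reads or more. The median log2 fold change of the members was 0.16 in KO1 and 0.17 in KO2, against 0.01 and 0.02 over all tested rows. The WT libraries are the same in both comparisons, so the lines do not count as independent of each other. The labels do not say whether a group's 2 libraries were separate cultures, and the p-values reflect only the spread between libraries, which may be technical.

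In both lines at once, 17 members were higher and 6 lower than in WT, beside 5.79% and 7.72% of all tested rows and 8.45% and 12.4% of those with 30 reads or more. The 17 were ZNF214, ZNF224, ZNF235, ZNF263, ZNF367, ZNF506, ZNF529-AS1, ZNF549, ZNF550, ZNF562, ZNF614, ZNF649-AS1, ZNF671, ZNF703, ZNF710-AS1, ZNF814 and ZNF891. The 6 were ZNF57, ZNF397, ZNF446, ZNF503-AS2, ZNF511 and ZNF747. By the arrangement of the overlap, 10 of the 36 tail-to-tail members were higher and 3 lower, 3 of the 24 with one gene inside the other were higher and 0 lower, and 0 of the 14 head-to-head members were higher and 3 lower. The difference between arrangements was not tested. The calls of 10 higher rows and 3 lower rows passed whichever library was left out. These were ZNF224, ZNF235, ZNF263, ZNF506, ZNF529-AS1, ZNF550, ZNF562, ZNF703, ZNF710-AS1 and ZNF891, and ZNF446, ZNF503-AS2 and ZNF511. ZNF135 was called in both lines with opposite signs.

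**Figure D2:**
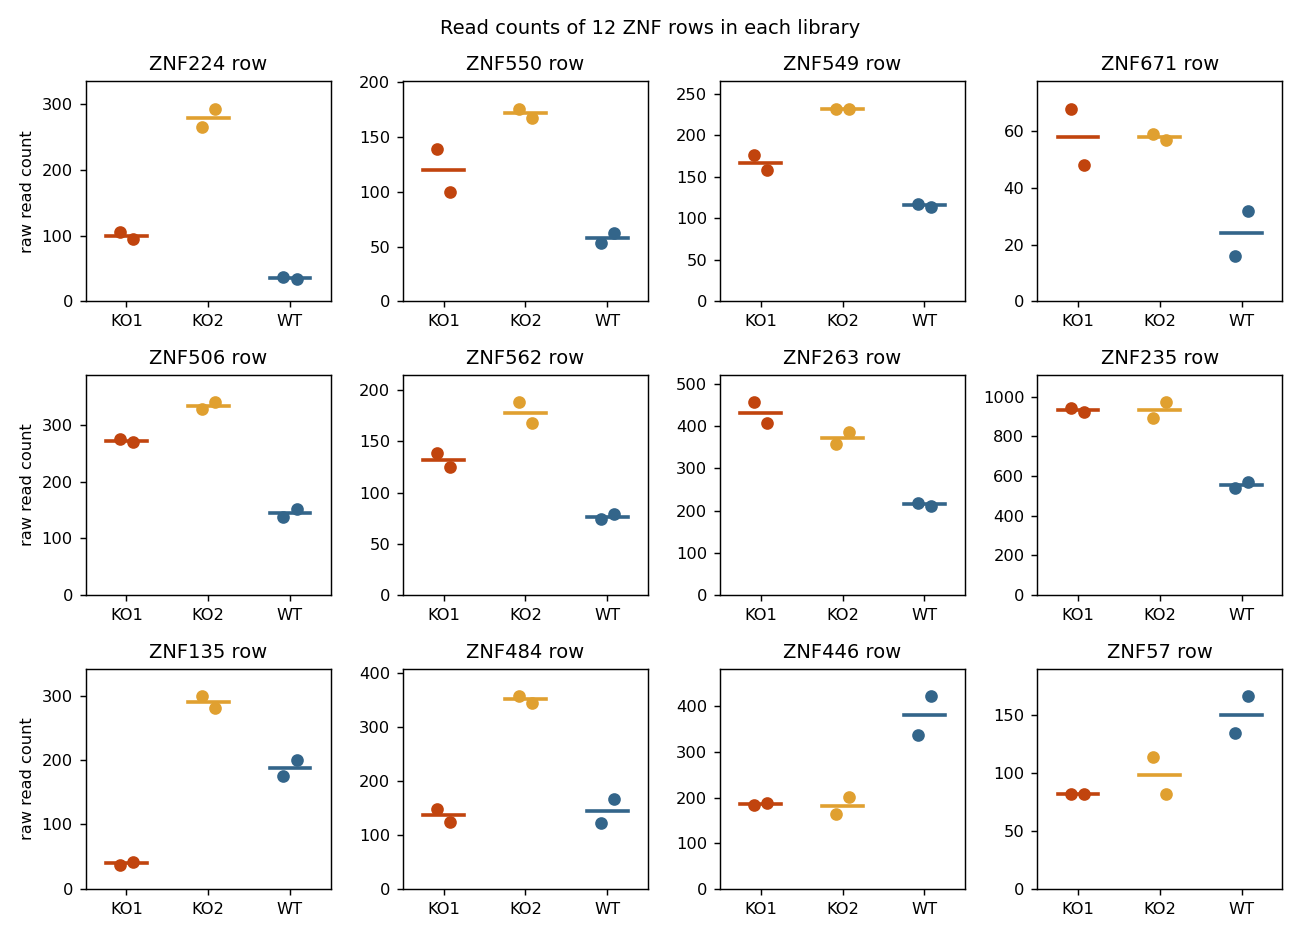
Raw read counts of 12 ZNF rows in each library (points) with the mean of each group (lines), KO1 at the left, KO2 in the middle and WT at the right of each panel, each axis starting at 0. The ZNF224 row had 105 and 95 reads in KO1, 265 and 293 in KO2 and 37 and 34 in WT, and the ZNF135 row was low in KO1 alone.

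The ZNF224 row rose most of all member rows in each line. The gene of that name encodes a KRAB repressor first described at the aldolase A gene. It lies at chr19:44094339-44109886 on the plus strand of GRCh38 with 2875 exonic bases over the antisense gene AC021092.1. Its row had 105 and 95 reads in KO1, 265 and 293 in KO2 and 37 and 34 in WT. The groups did not overlap, and both KO2 libraries stood above both KO1 libraries. The row was 2.97-fold higher in KO1 than in WT (log2 1.57 ± 0.22 SE, edgeR adjusted p = 4.71e-07) and 7.13-fold higher in KO2 (2.83 ± 0.20, adjusted p = 3.62e-14), n = 2 libraries per group. KO1 was lower than KO2 by 1.26 on the log2 scale (adjusted p = 2.59e-07 by the same edgeR test). The AC021092.1 row had 1037 and 829 reads in KO1, 1178 and 1142 in KO2 and 710 and 801 in WT, with log2 fold changes of 0.38 in KO1 and 0.49 in KO2, both past the threshold.

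The overlapping pair ZNF549 and ZNF550, whose promoters are printed above, rose together. The ZNF550 row (chr19:57535257-57559863, minus strand, 473 exonic bases over ZNF549) had 139 and 100 reads in KO1, 176 and 167 in KO2 and 53 and 62 in WT. It was 2.19-fold higher in KO1 (log2 1.13 ± 0.21, edgeR adjusted p = 5.54e-05) and 2.72-fold higher in KO2 (1.44 ± 0.20, adjusted p = 3.73e-07). The ZNF549 row, named here as the partner and outside the naming rule, had 176 and 158 reads in KO1, 232 and 231 in KO2 and 117 and 114 in WT. No KO library of either row overlapped WT. The ZNF549 log2 fold change was 0.61 in KO1 and 0.87 in KO2, and the KO1 call was lost without WT replicate 2 (0.54, edgeR adjusted p = 0.0565).

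ZNF671, a gene known as a DNA methylation marker in several cancers, lies in the same cluster within the span of AC003006.1. Its row had 68 and 48 reads in KO1, 59 and 57 in KO2 and 16 and 32 in WT, without overlap. It rose by 1.35 ± 0.31 on the log2 scale in KO1 (edgeR adjusted p = 0.0010) and by 1.14 ± 0.31 in KO2 (adjusted p = 0.00436). Without WT replicate 1 the KO2 value was 0.77 and no longer passed (adjusted p = 0.112). ZNF154, another such methylation marker of that cluster, named outside the rule, had 105 and 103 reads in KO1, 87 and 85 in KO2 and 46 and 68 in WT. It passed in KO1 (0.95, edgeR adjusted p = 0.00119) and not in KO2 (0.46, adjusted p = 0.131), and KO1 against KO2 gave 0.49 (adjusted p = 0.10).

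ZNF506 at chr19:19785839-19821751 on the minus strand overlaps AC011477.1, a pseudogene, by 246 exonic bases. The ZNF506 row had 275 and 270 reads in KO1, 328 and 340 in KO2 and 138 and 152 in WT. It was 1.99-fold higher in KO1 (log2 0.99 ± 0.13, edgeR adjusted p = 2.57e-07) and 2.10-fold higher in KO2 (1.07 ± 0.13, adjusted p = 2.94e-08). ZNF562, which shares 2461 exonic bases with ZNF561-AS1, had 139 and 125 reads in KO1, 188 and 168 in KO2 and 74 and 79 in WT. Its log2 fold change was 0.87 ± 0.19 in KO1 (edgeR adjusted p = 0.000557) and 1.08 ± 0.18 in KO2 (adjusted p = 1.2e-05). Both rows stood above WT in every KO library.

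ZNF235 and ZNF227 share 970 exonic bases on opposite strands of chromosome 19. The ZNF235 row, named outside the rule, had 942 and 924 reads in KO1, 892 and 972 in KO2 and 539 and 572 in WT, and rose by 0.83 in KO1 and 0.61 in KO2 on the log2 scale (edgeR adjusted p = 2.15e-10 and 1.15e-07). The ZNF227 row had 150 and 120 reads in KO1, 95 and 86 in KO2 and 61 and 69 in WT. It rose by 1.13 ± 0.20 in KO1 (edgeR adjusted p = 4.06e-05) and had 0.34 ± 0.21 in KO2 (adjusted p = 0.244). The difference of 0.79 between KO1 and KO2 passed (adjusted p = 0.00251) but was lost without KO2 replicate 2 (0.67, adjusted p = 0.0521).

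Off chromosome 19, ZNF263, a DNA-binding factor with SCAN and KRAB domains, overlaps TIGD7 by 2296 exonic bases on chromosome 16. The ZNF263 row had 456 and 408 reads in KO1, 357 and 385 in KO2 and 218 and 211 in WT, with no overlap between any of the 3 groups. Its log2 fold change was 1.09 ± 0.11 in KO1 and 0.65 ± 0.11 in KO2 (edgeR adjusted p = 1.17e-09 and 2.07e-05). TIGD7 gave log2 values of 0.20 in KO1 and -0.07 in KO2, neither past the threshold. ZNF703, a corepressor amplified in some breast cancers and named outside the rule, has no gene on its other strand. It had 738 and 653 reads in KO1, 714 and 765 in KO2 and 395 and 558 in WT, and rose by 0.63 and 0.50 (edgeR adjusted p = 3.53e-06 in KO1 and 8.1e-05 in KO2). ZNF891 on chromosome 12, also named outside the rule, overlaps ZNF140 by 728 bases and rose by 0.75 in KO1 and 0.61 in KO2. The median of its 10 Mb bin was 0.46 in KO1 and 0.44 in KO2, and a fit with an offset for the bin left 0.29 and 0.17 (edgeR adjusted p = 0.104 and 0.368).

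Other rows that rose in both lines lost a call with single libraries. ZNF614 had 69 and 65 reads in KO1, 63 and 69 in KO2 and 34 and 36 in WT. Its log2 fold change was 1.01 in KO1 and 0.78 in KO2, and the KO2 call was lost without either KO2 or either WT library (0.76 to 0.81). ZNF367 had 54 and 56 reads in KO1, 65 and 89 in KO2 and 33 and 29 in WT. Its KO1 value of 0.90 fell short without KO1 replicate 2 (0.83) or WT replicate 2 (0.76), and its KO2 value was 1.17. A fit with an offset for the 10 Mb bin, whose median was 0.48 in KO2, left 0.69 (edgeR adjusted p = 0.062). ZNF214, which overlaps ZNF215 by 896 bases, had 66 and 69 reads in KO1, 83 and 103 in KO2 and 39 and 44 in WT. Its KO1 value of 0.78 fell short without KO1 replicate 2 (0.70), WT replicate 1 (0.75) or WT replicate 2 (0.81), and its KO2 value was 1.03. ZNF814, with 2236 and 1976 reads in KO1, 2360 and 2605 in KO2 and 1724 and 1945 in WT, rose by 0.28 and 0.30. Its KO1 call was lost without WT replicate 1 (0.24), and its opposite gene ZNF587 is annotated over 2445 of its exonic bases while the ZNF587 row held 1 to 7 reads.

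Of the 6 members lower in both lines, ZNF446 fell most in each. It lies at chr19:58474017-58481230 on the plus strand, with 1131 exonic bases over SLC27A5, a bile acyl-CoA synthetase. The ZNF446 row had 184 and 188 reads in KO1, 164 and 201 in KO2 and 338 and 422 in WT, without overlap. It was 1.93-fold lower in KO1 (log2 -0.95 ± 0.13, edgeR adjusted p = 4.33e-07) and 2.28-fold lower in KO2 (-1.19 ± 0.13, adjusted p = 3.08e-09). SLC27A5 itself had 1164 and 1056 reads in KO1, 1117 and 1192 in KO2 and 995 and 1066 in WT, and passed in neither line (0.19 and 0.03). The counts of the 2 rows of this overlap thus ran apart.

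ZNF57 had 82 and 82 reads in KO1, 114 and 82 in KO2 and 134 and 166 in WT. Its log2 fold change was -0.79 in KO1 (edgeR adjusted p = 0.00274) and -0.74 in KO2 (adjusted p = 0.00308), and without KO2 replicate 2 the KO2 value was -0.48 and did not pass (adjusted p = 0.145). ZNF511, which overlaps TUBGCP2 of the gamma-tubulin complex head to head, had 625 and 622 reads in KO1, 658 and 662 in KO2 and 870 and 960 in WT. It fell by 0.47 in KO1 and by 0.60 in KO2, beside -0.50 and -0.65 in the TUBGCP2 row. The 10 Mb bin of ZNF511 held too few rows for a median, so a fit with the bin offset was not possible for it. The bin before it on chromosome 10 had medians of -0.47 in KO1 and -0.39 in KO2. ZNF747 had 87 and 96 reads in KO1, 96 and 90 in KO2 and 145 and 150 in WT. It fell by 0.61 in KO1 and by 0.80 in KO2, and the KO1 call was lost without KO1 replicate 1 (-0.50) or WT replicate 1 (-0.58).

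In 2 of the falling rows that had a bin median, the rows around them fell as far. ZNF503-AS2 lies over ZNF503, a transcriptional repressor known from eye development, by 388 exonic bases on chromosome 10. It had 6583 and 6813 reads in KO1, 8271 and 8462 in KO2 and 9536 and 10089 in WT, and fell by 0.47 ± 0.06 in KO1 (edgeR adjusted p = 2.33e-08) and by 0.36 ± 0.06 in KO2 (adjusted p = 2.25e-06). The median of the 42 abundant rows in its 10 Mb bin was -0.48 in KO1 and -0.36 in KO2, and with an offset for the bin the row had 0.01 and -0.01 and no call. The ZNF503 row, with 224 and 203 reads in KO1, 244 and 241 in KO2 and 230 and 259 in WT, passed in neither line (-0.12 and -0.14). ZNF397, which overlaps ZSCAN30 on chromosome 18, had 193 and 149 reads in KO1, 245 and 239 in KO2 and 267 and 344 in WT. It fell by 0.76 in KO1 and by 0.47 in KO2, beside bin medians of -0.96 and -0.88. With the bin offset it stood at 0.20 in KO1 (edgeR adjusted p = 0.366) and at 0.41 in KO2, where it passed edgeR's test in the other direction. The KO2 call without the offset was lost without KO2 replicate 2 (-0.41) or WT replicate 2 (-0.33).

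Other members of high count differed less from WT. ZNF771, over the dCTP pyrophosphatase gene DCTPP1 by 666 exonic bases, had 10860 and 11466 reads in KO1, 10921 and 11534 in KO2 and 12546 and 13035 in WT. It fell by 0.32 in KO2 (edgeR adjusted p = 1.11e-05) and had -0.11 in KO1 (adjusted p = 0.13). ZNF276, over the Fanconi anaemia gene FANCA by 2302 bases, had 4688 and 3909 reads in KO1, 4150 and 4646 in KO2 and 3507 and 3913 in WT. It rose by 0.29 in KO1 (edgeR adjusted p = 0.00062) and had 0.11 in KO2. Its KO1 and WT libraries overlapped in raw counts only, which are not scaled for library size. The overlap was between KO1 replicate 2, with a total count of 7414339, and WT replicate 2, with 8085598. ZNF497, over A1BG-AS1, had 736 and 745 reads in KO1, 849 and 869 in KO2 and 849 and 836 in WT, with -0.11 in each line and no call.

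Of the 17 antisense-named members, ZNF710-AS1, ZNF529-AS1, ZNF649-AS1 and ZNF503-AS2 were called in both lines. ZNF710-AS1, over ZNF710 by 793 bases, had 803 and 769 reads in KO1, 792 and 781 in KO2 and 556 and 586 in WT, and rose by 0.54 and 0.33. Its bin median was 0.25 in KO1 and 0.34 in KO2, and with the bin offset its KO2 value was -0.01 and no longer passed. The ZNF710 row moved otherwise, with 80 and 75 reads in KO1, 128 and 130 in KO2 and 128 and 135 in WT, and fell by 0.68 in KO1 (edgeR adjusted p = 0.00654) with -0.16 in KO2. ZNF529-AS1, over ZNF529 by 149 bases, had 222 and 247 reads in KO1, 246 and 255 in KO2 and 148 and 144 in WT, and rose by 0.76 and 0.64. ZNF649-AS1, over ZNF649 by 308 bases, had 324 and 327 reads in KO1, 318 and 370 in KO2 and 236 and 231 in WT. It rose by 0.56 and 0.42, and its KO2 call was lost without KO2 replicate 2 (0.35) or WT replicate 2 (0.36).

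ZNF790-AS1 was low in KO1 alone, with 99 and 95 reads in KO1, 184 and 175 in KO2 and 157 and 196 in WT. It fell by 0.78 in KO1 (edgeR adjusted p = 0.000669), had -0.11 in KO2, and was lower in KO1 than in KO2 by 0.67 (adjusted p = 0.00362). ZNF32-AS1 rose by 0.42 in KO1 (640 and 670 reads, against 505 and 533 in WT) and had 0.13 in KO2 (605 and 646 reads). ZNF571-AS1 rose by 0.73 in KO2 and lost that call without WT replicate 2 (0.60). ZNF561-AS1 rose by 0.40 in KO2 and lost it without KO2 replicate 2 (0.38) or WT replicate 2 (0.22). ZNF687-AS1 rose by 0.43 in KO2 and lost it without either KO2 library (0.40 and 0.47) or WT replicate 1 (0.30). ZNF436-AS1 fell by 0.98 in KO2, with 29 and 25 reads in KO1, 24 and 28 in KO2 and 37 and 57 in WT, and lost it without either KO2 library (-0.90 and -1.05) or WT replicate 2 (-0.69). Its bin median was -0.64 in KO2, and the bin offset left -0.34 (edgeR adjusted p = 0.502). The other antisense-named members, ZNF213-AS1, ZNF252P-AS1, ZNF32-AS2, ZNF337-AS1, ZNF341-AS1, ZNF350-AS1 and ZNF451-AS1, were not called against WT in either line, and their values ran from -0.17 to 0.60.

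Set against each other, KO1 was higher than KO2 in 16 members and lower in 11, beside 10.1% and 10.3% of all tested rows and 16.5% and 14.6% of those with 30 reads or more. With upper-quartile scaling the split was 19 and 8. Without KO2 replicate 1 the counts were 8 and 7, and without KO1 replicate 2 or KO2 replicate 2 the lower count was also 7. The median log2 difference was 0.02 over the members and -0.02 over all tested rows. No member was called and at least 2-fold higher in KO1 than in KO2, and 5 were at least 2-fold lower.

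ZNF135 showed the widest gap between the lines. It lies at chr19:58059239-58086310 on the plus strand, with 2091 exonic bases over ZSCAN18, a gene of the related SCAN zinc finger family. Its row had 37 and 42 reads in KO1, 299 and 281 in KO2 and 175 and 200 in WT, so the groups did not overlap and KO1 was lowest. It was 4.47-fold lower in KO1 than in WT (log2 -2.16 ± 0.19, edgeR adjusted p = 3.02e-11) and 1.41-fold higher in KO2 (0.50 ± 0.15, adjusted p = 0.00879). The KO2 call was lost without KO2 replicate 1 (0.42, adjusted p = 0.12) or WT replicate 1 (0.45, adjusted p = 0.0784). KO1 was lower than KO2 by 2.66 ± 0.18 (edgeR adjusted p = 1.16e-13). The ZSCAN18 row held 1 and 1 reads in KO1, 0 and 3 in KO2 and 2 and 3 in WT.

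In the other 4 gaps of at least 2-fold, that of ZNF224 among them, KO2 was the higher line. ZNF484 on chromosome 9, within the span of the pseudogene ANKRD19P, had 148 and 124 reads in KO1, 357 and 345 in KO2 and 122 and 167 in WT. It rose by 1.15 ± 0.14 in KO2 (edgeR adjusted p = 4.97e-08) with -0.01 in KO1, and KO1 lay below KO2 by 1.16. Its bin median was 0.48 in KO2 and -0.05 in KO1. ZNF205 on chromosome 16, with 399 exonic bases over ZNF213-AS1, had 59 and 55 reads in KO1, 153 and 118 in KO2 and 63 and 71 in WT. It rose by 0.88 in KO2, a call lost without KO2 replicate 1 (0.65), and KO1 lay below KO2 by 1.04. The ZNF213-AS1 row had 1502 and 1455 reads in KO1, 1401 and 1487 in KO2 and 1431 and 1530 in WT. There KO1 lay above KO2 by 0.25 (edgeR adjusted p = 0.00681), a call lost without KO2 replicate 1 (0.23) or KO2 replicate 2 (0.25). ZNF865 had 32 and 24 reads in KO1, 55 and 80 in KO2 and 32 and 39 in WT. KO1 lay below KO2 by 1.05 (edgeR adjusted p = 0.00762), which was lost without KO1 replicate 2 (-0.90) or KO2 replicate 2 (-0.80). Its rise of 0.79 in KO2 was lost without KO2 replicate 2 (0.54), WT replicate 1 (0.70) or WT replicate 2 (0.88).

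Further rows passed in KO2 only against WT. ZNF382, which overlaps ZNF529 by 151 bases, had 44 and 34 reads in KO1, 71 and 61 in KO2 and 20 and 30 in WT. It rose by 1.27 in KO2 (edgeR adjusted p = 0.00103), had 0.72 in KO1 (adjusted p = 0.101), and KO1 against KO2 gave -0.55 (adjusted p = 0.18), so the lines were not shown to differ. ZNF557 had 38 and 26 reads in KO1, 48 and 44 in KO2 and 14 and 25 in WT. Its rise of 1.10 in KO2 was lost without KO2 replicate 1 (1.01) or WT replicate 1 (0.79). On chromosome 7, chosen after the values were seen, ZNF3 had 861 and 725 reads in KO1, 546 and 442 in KO2 and 792 and 829 in WT. ZNF3 fell by 0.85 in KO2, ZNF394 by 0.76 and ZNF789 by 0.70, with 0.05, -0.09 and -0.16 in KO1. The bin median was -0.46 in KO2 for ZNF3 and -0.56 for ZNF394 and ZNF789, which overlap each other by 445 bases. With an offset for the bin, ZNF394 had -0.20 and ZNF789 had -0.14 in KO2, and neither passed (edgeR adjusted p = 0.106 and 0.604).

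No member was fully on or off in a line. A row was taken as off in a group with at most 2 reads in both libraries and as on with at least 20 in both. The lowest count of a member in a library was 14, for ZNF250. All 117 members had 10 or more reads in every library and 111 had 20 or more. Of the 8062 rows of mean count 30 or more, 19 were on in 1 group and off in another. Below the threshold of 30, ZNF793-AS1 was the 1 such row among the 585, with 1 and 0 reads in KO1, 23 and 20 in KO2 and 2 and 5 in WT.

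Chromosome 19 held 42 of the members. Of them 15 were higher and 4 lower in KO1 than in WT, and 19 were higher and 4 lower in KO2. In both lines 11 were higher and 2 lower. Without KO2 replicate 2 these counts were 9 and 1. The median log2 fold change of the 42 was 0.33 in KO1 and 0.41 in KO2. The 904 tested rows of chromosome 19 that are not ZNF rows had medians of -0.01 and 0.06, with 48 higher and 80 lower in both lines. At the members' threshold of 30 reads, 561 of these rows remained, with medians of -0.02 and 0.03. Of the 561, 13.7% were higher and 19.1% lower in KO1, and 17.8% and 20.9% in KO2. In both lines 46 of them were higher and 71 lower, or 8.2% and 12.7%. The 75 members placed elsewhere or not placed had medians of 0.04 and 0.05, with 6 higher and 4 lower in both lines.

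Other rows inside the ZNF clusters leaned the same way. By annotation, the 275 ZNF genes of chromosome 19 formed 10 clusters, runs of at least 5 genes with gaps of at most 500 kb, and 40 of the 42 members lay in 8 of them. The 40 had medians of 0.33 in KO1 and 0.41 in KO2. The 96 other tested rows inside the cluster spans, none of them a ZNF row, had medians of 0.28 and 0.30. Of the 96, 22 were higher and 3 lower in KO1 and 19 were higher and 6 lower in KO2. The 808 other tested rows outside the spans, again without ZNF rows, had medians of -0.02 and 0.04. Of the 808, 65 were higher and 120 lower in KO1 and 105 were higher and 123 lower in KO2. Rows of one cluster share neighbours and overlaps and are not independent of each other.

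**Figure D3:**
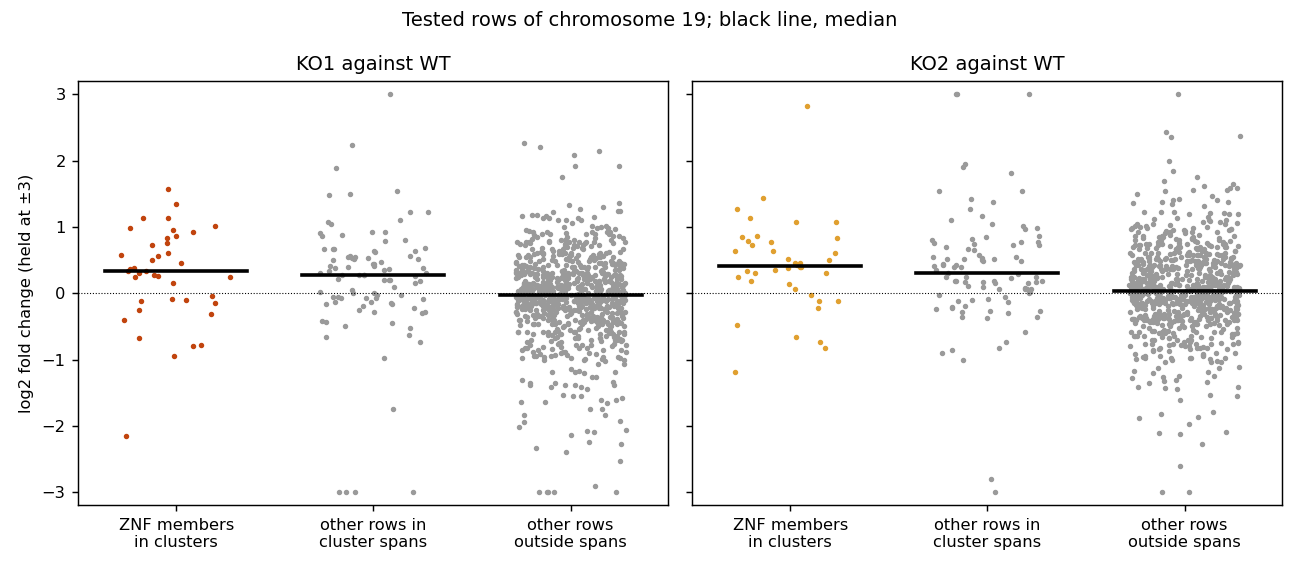
Log2 fold change (vertical axis, held at ±3) of tested rows of chromosome 19, KO1 against WT at the left and KO2 against WT at the right. Shown are the 40 members in clusters, the 96 other rows in cluster spans and the 808 other rows outside them. The other rows are not ZNF rows, and the 2 members outside clusters are not shown. Black lines are medians, at 0.33, 0.28 and -0.02 in KO1 and 0.41, 0.30 and 0.04 in KO2.

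By cluster, the median of the members ranged from -0.79 to 0.99 in KO1 and from -0.74 to 1.07 in KO2. Cluster 7 (chr19:43525497-44500524), with 7 members including ZNF224, ZNF227 and ZNF235, had a median of 0.83 in KO1 and 0.34 in KO2. Its members summed to 2076 and 1935 raw reads in KO1, 1864 and 2035 in KO2 and 1458 and 1532 in WT. These sums are not scaled for library size. ZNF235 alone gave 892 and 972 of the reads in KO2 and 539 and 572 in WT. In KO1, 4 of the 7 members were higher and 0 lower, beside 10.4% and 13.3% of all tested rows. In KO2, 2 were higher and 1 lower, beside 13.6% and 15.4%. The lower member was ZNF575, over the mitochondrial sulfur dioxygenase gene ETHE1 by 238 bases. Its row had 613 and 586 reads in KO1, 417 and 423 in KO2 and 642 and 707 in WT. ZNF575, named outside the rule, fell by 0.82 in KO2 (edgeR adjusted p = 2.07e-09) and had -0.09 in KO1.

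Cluster 10 (chr19:57191500-58481230) at the end of the chromosome held 14 members and had medians of 0.32 in KO1 and 0.42 in KO2. Its members ranged from -2.16 to 1.35 in KO1 and from -1.19 to 1.44 in KO2, from ZNF135 and ZNF446 at the low ends to ZNF671 and ZNF550 at the high ends. Cluster 6 (chr19:36182060-37817300) had 9 members, with medians of 0.31 and 0.40, and the 10 other tested rows in its span had 0.47 and 0.54. Cluster 8 (chr19:51571298-53580269), with ZNF614 and ZNF649-AS1 among its 4 members, had medians of 0.20 and 0.44. Cluster 2, with ZNF562 and ZNF561-AS1, had 0.60 and 0.74, and cluster 9, with ZNF787 and ZNF865, had -0.05 and 0.49. Cluster 1 held ZNF57 alone as a member, lower in both lines, and cluster 4 held ZNF506 alone, higher in both. Clusters 3 and 5 held no member.

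**Figure D4:**
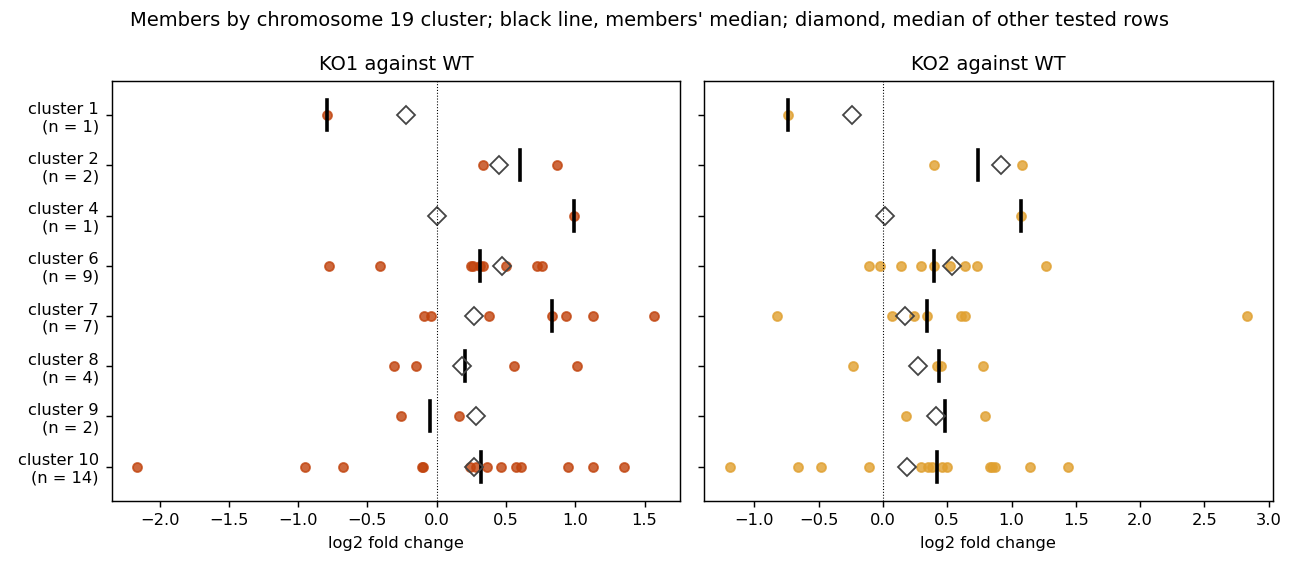
Log2 fold change (horizontal axis) of each member by chromosome 19 cluster, KO1 against WT at the left and KO2 against WT at the right (n, members). Points are members, black lines their median and open diamonds the median of the tested rows in the span that are not ZNF rows. ZNF135 in cluster 10 stands at -2.16 in KO1 and ZNF224 in cluster 7 at 2.83 in KO2.

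Cluster 4 (chr19:19668796-24129961) held rows that were on in one line and off in another, though none of them is a member. The 744 other rows of the table placed inside the cluster spans include ZNF rows under 30 reads. Of the 744, 5 met that definition, and 4 of the 5 lay in cluster 4. The share of such rows over the whole table was not counted. Neither was the number of the 744 that lie in cluster 4, so no concentration there is shown. The 5 rows were found by their values and are described without a test. AC024563.1, an antisense row over ZNF492 by 173 exonic bases, had 0 and 0 reads in KO1, 6 and 5 in KO2 and 44 and 41 in WT. AC011503.1, an antisense row over ZNF726 by 339 bases, had 0 and 0 reads in KO1, 7 and 13 in KO2 and 64 and 64 in WT. Against a limit of 3 counts over the 2 KO1 libraries, they were at least 26.8-fold and at least 40.4-fold lower in KO1 than in WT.

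AC011477.1, the row opposite ZNF506, had 2 and 0 reads in KO1, 27 and 37 in KO2 and 35 and 35 in WT, while the ZNF506 row stood above WT in both lines. It was the 1 row on and off in this sense among the 44 rows that lie opposite a member and are not members themselves. For this count too, the share over the whole table was not counted. The pseudogene row BNIP3P17 was on in KO2 alone, with 25 and 30 reads there and none in either library of KO1 or WT. The fifth row was ZNF793-AS1 in cluster 6. The limits given for rows at 0 cover counting error alone, because the reads carry no molecular identifiers and are not independent molecules.

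**Figure D5:**
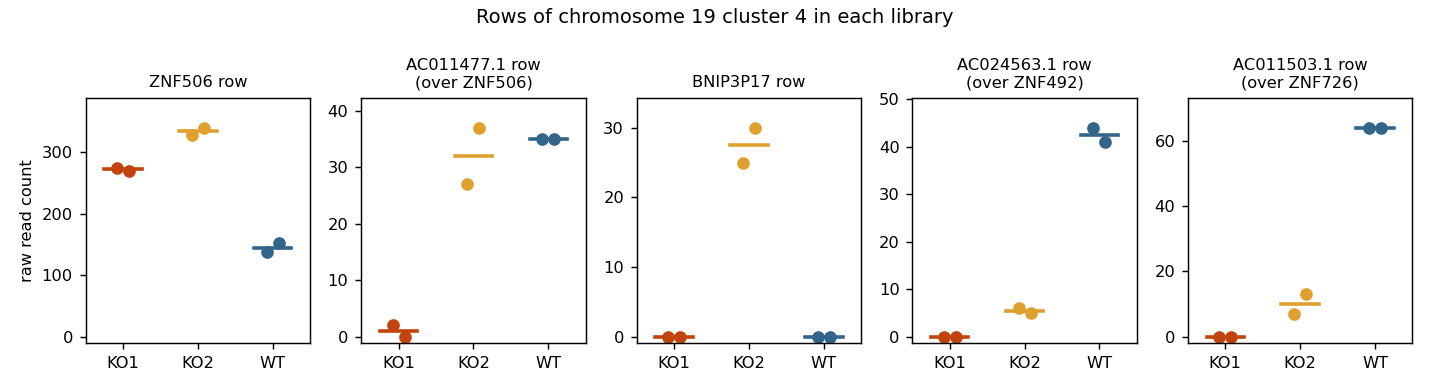
Raw read counts in each library (points) with group means (lines) of the ZNF506 row and of the 4 rows of chromosome 19 cluster 4 that were off in one group and on in another, KO1 at the left, KO2 in the middle and WT at the right. AC024563.1 and AC011503.1 had no reads in KO1, and BNIP3P17 had reads in KO2 only.

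ZNF genes can also be read through the row on their other strand. Such a tested row existed for 101 ZNF genes, 27 of them through a row that is itself a member, and 14 were higher and 15 lower in both lines. The shares of all tested rows were 5.79% and 7.72%, as above. Through the 74 rows that are not members, 6 were higher and 14 lower. On chromosome 19 the counts were 9 higher and 4 lower of 41 genes, with medians of 0.38 in each line. Through the 30 rows there that are not members they were 4 higher and 4 lower, with medians of 0.20 in KO1 and 0.26 in KO2. Elsewhere 5 were higher and 11 lower of 60. Among those named after their values were seen, AC006213.1, over ZNF155 by 1430 bases in cluster 7, had 677 and 605 reads in KO1, 580 and 608 in KO2 and 211 and 270 in WT. It rose by 1.50 in KO1 and 1.17 in KO2. ZNF114 and ZNF114-AS1, which overlap by 114 bases, were both low in the knockout lines. The ZNF114 row had 5 and 4 reads in KO1, 8 and 7 in KO2 and 33 and 35 in WT, and the ZNF114-AS1 row had 4 and 6 in KO1, 8 and 1 in KO2 and 19 and 37 in WT. The ZNF114-AS1 calls were lost without WT replicate 2 (-1.87 in KO1 and -2.22 in KO2).

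For 63 members the opposite row was also tested, and for 29 of these it was itself a member, so pairs of members enter from both sides. Over all 63, the opposite row was higher in KO1 for 16 and lower for 10, and higher in KO2 for 13 and lower for 13. For the 19 members higher in KO1 it was higher for 10, lower for 2 and not called for 7. In KO2, it was higher for 6 and not called for 9 of the 15 that rose. Among the 8 members that fell in KO1 it was lower for 4, higher for 1 and not called for 3, and among the 10 that fell in KO2 it was lower for 6 and not called for 4.

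Of the genes through which KRAB zinc fingers act, 27 of 28 listed were tested as rows. In KO1, 3 were higher and 2 lower, in KO2 3 higher and 1 lower, and 2 were higher in both. Beside 10.4% higher and 13.3% lower of all tested rows in KO1, 13.6% and 15.4% in KO2 and 5.79% higher in both, these counts do not set the list apart. The medians were 0.11 in each line, against 0.01 and 0.02 over all tested rows. Whether the reads of these rows came from the named genes was not tested. The TRIM28 row, named for the corepressor, has no gene on its other strand. This row had 273 and 261 reads in KO1, 263 and 282 in KO2 and 144 and 166 in WT. It rose by 0.87 in KO1 (edgeR adjusted p = 4.16e-06) and by 0.68 in KO2 (adjusted p = 0.000124), with every KO library above WT. The DNMT1 row, named for the maintenance DNA methyltransferase, had 90 and 57 reads in KO1, 81 and 92 in KO2 and 38 and 51 in WT. Its values of 0.80 and 0.82 fell short in KO1 without KO1 replicate 1 (0.48) or WT replicate 1 (0.65), and in KO2 without KO2 replicate 2 (0.77) or WT replicate 1 (0.67).

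Read through the opposite row, 7 of these genes were tested, with 1 higher and 1 lower in both lines. EHMT2-AS1, over the histone methyltransferase gene EHMT2, had 5249 and 5158 reads in KO1, 5329 and 5811 in KO2 and 4160 and 4239 in WT, and rose by 0.39 and 0.27. AL365356.1, over FAM208B, had 861 and 773 reads in KO1, 1364 and 1202 in KO2 and 1383 and 1482 in WT. It fell by 0.73 in KO1 and by 0.29 in KO2, and the KO2 call was lost without KO2 replicate 2 (-0.16). Of 26 rows from related zinc finger families at the same count threshold, 2 were higher and 1 lower in both lines, beside 8.45% and 12.4% of the rows with 30 reads or more that are not ZNF rows. YY1, a zinc finger factor outside the KRAB group, had 535 and 512 reads in KO1, 746 and 767 in KO2 and 397 and 421 in WT, and rose by 0.44 and 0.75. ZIK1, in cluster 10, had 0.66 and 0.54, and ZSCAN30 had -0.53 and -0.95. The bin of ZSCAN30 had medians of -0.96 in KO1 and -0.88 in KO2. Its row kept no call under the bin offset (0.42 and -0.07, edgeR adjusted p = 0.0734 and 0.815). ZIK1 lost its KO2 call there (0.42, edgeR adjusted p = 0.123). Calls of both rows also depended on single libraries. The KO1 call of ZIK1 was lost without KO1 replicate 2 (0.58) or WT replicate 1 (0.63). Its KO2 call was lost without KO2 replicate 2 (0.41), WT replicate 1 (0.51) or WT replicate 2 (0.57). ZSCAN30 lost its KO1 call without KO1 replicate 2 (-0.48) or WT replicate 2 (-0.45).

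Just above the threshold of 30, ZNF250 averaged 30 reads, ZNF165 32.2 and ZNF557 32.5, and just below it, and so outside the set, ZNF295-AS1 averaged 29.2, ZNF451 28.8 and ZNF606 28.7. For 15 members the mean of at least 1 group was under 30, and 7 of these were called in some comparison. In the authors' deposited table of both knockout lines against WT, 107 members are listed, 17 of them higher and 5 lower at a q-value under 0.05, beside 4.04% and 5.84% of its 11785 rows. The authors' deposited table gives ZNF224 a log2 fold change of 2.26 with a q-value of 0.0416.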

How the data were processed

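Total RNA of 6 HEK293T libraries was extracted with TRNzol and built into libraries with the NEBNext Ultra II Directional kit, per the labels' protocols. The submitters' processing notes name STAR 2.7.1a, HTSeq 0.6.1p1, limma and Trim Galore. The strand setting of the counting is not given in the sources used here. The authors deposited raw read counts per symbol, the values tested here, and a second table with FPKM values, log2 fold changes, p-values and q-values, per the file headers. The FPKM values were not used for a test.

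Counts were tested with edgeR 4.0.16 in R 4.3.3 (quasi-likelihood F test, TMM scaling, filterByExpr, 14184 rows, 1 fit of the 3 groups, 3 residual and 31.9 prior degrees of freedom, coefficient of variation 7.57%). p-values were adjusted over all tested rows by the Benjamini-Hochberg method and called under 0.05. Rows were placed with GENCODE v29 on GRCh38. Bin medians came from 10 Mb bins holding 15 or more rows that averaged 50 or more reads. DESeq2 1.42.0 and limma 3.58.1 (voom) served as alternatives, and the fit was tested on simulated data. Members and lists were chosen with earlier results of these data known. Rows were named by the 8 highest and 8 lowest changes of at least 2-fold per comparison, the 8 highest and 8 lowest called in both lines, the 8 of highest mean count, every antisense-named member, the smallest p of each chromosome 19 cluster and the 3 rows on each side of the threshold. Others are marked as outside this rule, and 1 row is not reported here.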

Additional observations from a re-analysis of the deposited data

Results flagged for a closer look

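In 5 members the change against WT differed between the 2 knockout lines by at least 2-fold, by edgeR's quasi-likelihood test of KO1 against KO2 with Benjamini-Hochberg adjustment over all tested rows. The difference was -1.26 for ZNF224 (log2, adjusted p = 2.59e-07), with 1.57 in KO1 and 2.83 in KO2 against WT. For ZNF135 it was -2.66 (adjusted p = 1.16e-13), with -2.16 in KO1 and 0.50 in KO2, and ZNF135 was the 1 member called against WT with opposite signs. For ZNF484 it was -1.16 (adjusted p = 9.04e-08), with -0.01 in KO1 and 1.15 in KO2. For ZNF865 it was -1.05 (adjusted p = 0.00762), and for ZNF205 it was -1.04 (adjusted p = 0.000384). The ZNF865 difference did not pass without KO1 replicate 2 (-0.90) or KO2 replicate 2 (-0.80), nor with DESeq2 (-1.04, adjusted p = 0.10). Why the lines differ was not tested.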

How the results depend on the processing

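The counts of called members kept within 1.5 times under RLE and upper-quartile scaling, no filter, a mean count filter of 30, limma-voom and fits of the compared groups only. A change of at least 2-fold left 6 higher and 1 lower (7 in all) in KO1, 11 and 1 (12) in KO2, 0 and 5 (5) for KO1 against KO2, and 3 and 0 (3) in both lines. DESeq2 gave 6 lower in KO1, 18 higher and 29 in all in KO2, 9 and 5 (14) for KO1 against KO2, 11 and 3 (14) in both lines, and 7 and 1 on chromosome 19 in both lines. The bin offset, with 100 members testable, gave 10 higher in KO1 than in KO2, and turned the sign of ZNF397 (0.20 in KO1, 0.41 in KO2), ZNF503-AS2 (0.01 in KO1) and ZNF710-AS1 (-0.01 in KO2). With the replicate number as a block the counts were 28 and 10 in KO1, 30 and 15 in KO2, 14 and 9 for KO1 against KO2, and 17 and 6 in both lines. Samples of the same number did not deviate together (correlations -0.0286 to -0.0206), so no shared effect of the number was seen. The labels do not say whether libraries of the same number were prepared together.

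Leaving out each library in turn gave 23 to 28 higher, 8 to 11 lower and 33 to 39 in all in KO1, 24 to 32, 11 to 16 and 35 to 48 in KO2, 8 to 16, 7 to 11 and 15 to 27 for KO1 against KO2, and 12 to 18, 4 to 7 and 17 to 24 in both lines. On chromosome 19 the range in both lines was 8 to 12 higher and 1 to 2 lower. Of the values of named rows under these settings, 904 kept their call, 91 no longer passed and 4 changed sign. Among the calls against WT that DESeq2 did not make, each with its direction kept, were ZNF671, ZNF135, ZNF557, ZNF865, ZNF397, ZNF436-AS1, ZNF561-AS1, ZNF571-AS1, ZNF649-AS1 and ZNF687-AS1 in KO2, ZNF367, ZNF214, ZNF57, ZNF747 and ZNF549 in KO1, and ZNF614 and DNMT1 in both. With 2 libraries a group, rows near 30 reads allow no small change to be told from noise.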
